A study of Arabidopsis thaliana with 2 samples.

Results

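The expansin and expansin-like genes of Arabidopsis thaliana were read on 2 Affymetrix ATH1 arrays, 1 from NPA-grown and 1 from DMSO-grown shoots. Members were all genes whose symbol in the array's annotation begins with EXPA, EXPB, EXLA or EXLB and a number, each read from its brightest probe set for a single gene. This gave 18 genes of 13356 named in the same way, made up of 10 EXPA, 4 EXPB, 3 EXLA and 1 EXLB gene. Each of the 18 has 1 such probe set, so no gene has a second reading on its array. The gene table lists 38 genes with an expansin symbol or synonym. Of the other 20, 4 share probe sets, 1 has its own probe set under a symbol outside the rule, and 15 were not analysed here.

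The NPA group was Col-0 plants grown on medium with N-(1-naphthyl)phthalamic acid (NPA), which blocks the directional, cell-to-cell transport of auxin, dissolved in DMSO. The DMSO group was Col-0 plants grown on the same medium with an equal volume of the solvent, so both groups were exposed to DMSO. Shoots were cut at about 2 weeks, at stage 1.04 with about 6 rosette leaves, after growth at about 20 C with 16 h of light. The NPA concentration is not settled, since the treated sample's notes state 10 uM and the protocol of both samples states 10 mM. There was 1 array per group and thus no replicate and no test, and every difference below compares these 2 arrays only. RNA came from whole shoots, where fewer cells of a type and less RNA per cell cannot be told apart.

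Expansins are small secreted wall proteins that loosen the plant cell wall without cutting its polymers, by weakening the contacts between cellulose and the other wall polysaccharides. They are most active at acid pH, and auxin, which makes cells acidify their walls, is a classic trigger of this form of growth. Alpha-expansins (EXPA) and beta-expansins (EXPB) have this loosening activity. The expansin-like families EXLA and EXLB share the domain structure, but wall loosening by them has not been established.

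Signals are MAS5 values on a linear scale. A signal at or below the 40th percentile of its array, 27.9 on the NPA array and 28.3 on the DMSO array, was treated as at the floor. Of the 18 genes, 10 were above the floor on both arrays, 2 on 1 array and 6 on neither. Ratios are given as log2 of NPA over DMSO after the floor, and where 1 array is at the floor the ratio only bounds the difference from below. A probe set's signal also depends on its probes, so signals are compared between arrays and not between genes.

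Of the 18 genes, 12 of them measured, EXLB1, EXPB3 and EXPA9 were higher on the NPA array by 2-fold or more. Of the same genes, 0 were lower by that much. By the same 2-fold rule, 2.18% of all named genes were higher with NPA and 1.24% were lower. Among the 7758 measured named genes, those above the floor on 1 array or both, the shares were 3.75% higher and 2.13% lower. The 3 genes come from 3 of the 4 subfamilies.

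**Figure D1:**
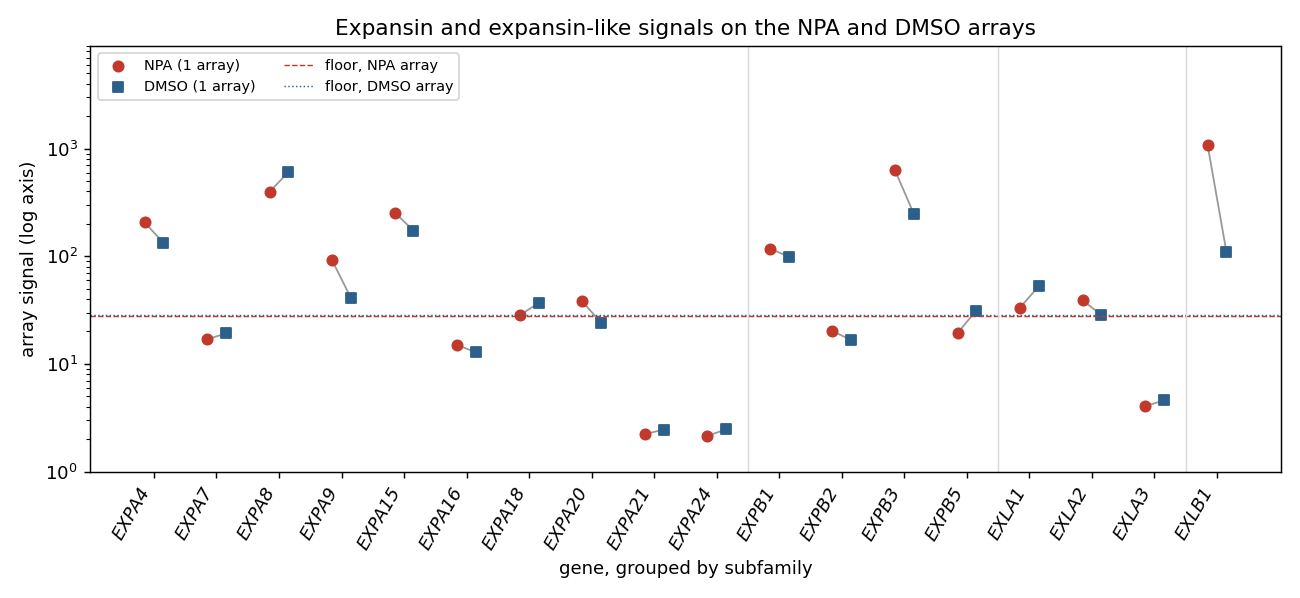
Array signal (log axis) of each of the 18 genes on the NPA array (red circles) and the DMSO array (blue squares), grouped by subfamily, with 1 array per group and each array's floor as a horizontal line. EXLB1, EXPB3 and EXPA9 have the widest gaps with the NPA signal above the DMSO signal, and 6 genes lie under both floors.

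EXLB1 (AT4G17030), the EXLB gene, had a signal of 1074 on the NPA array, against 110.1 on the DMSO array. Its log2 ratio was 3.29, the 4th highest of the 6812 named genes above the floor on both arrays. This was the only member past 3-fold. It was clear of the floor on both arrays, and its log2 ratio lay between 2.99 and 3.33 in all 9 alternative treatments of the signals. Of these, only the added floor and the scalings could change it.

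EXPB3 (AT4G28250), a beta-expansin, had a signal of 630.1 on the NPA array, against 249 on the DMSO array. The log2 ratio was 1.34, a 2.53-fold difference and rank 118 of 6812 from the highest. When the measured genes were split into 3 equal bins by mean signal, it fell in the brightest bin, where 4.1% of genes passed 2-fold in this direction. Its log2 ratio stayed between 1.25 and 1.38 in the same 9 alternatives, of which again only the added floor and the scalings could change it.

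EXPA9 (AT5G02260), an alpha-expansin, had a signal of 91.4 on the NPA array, against 41.0 on the DMSO array. The log2 ratio was 1.16, a 2.23-fold difference and rank 186 from the highest. In the middle signal bin, where it lies, 4.6% of genes passed 2-fold in this direction. Its DMSO signal was near the floor. The log2 ratio came to 0.78, under 2-fold, when the floor was raised to the 55th percentile, and also when the floor was added to the signals instead.

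**Figure D2:**
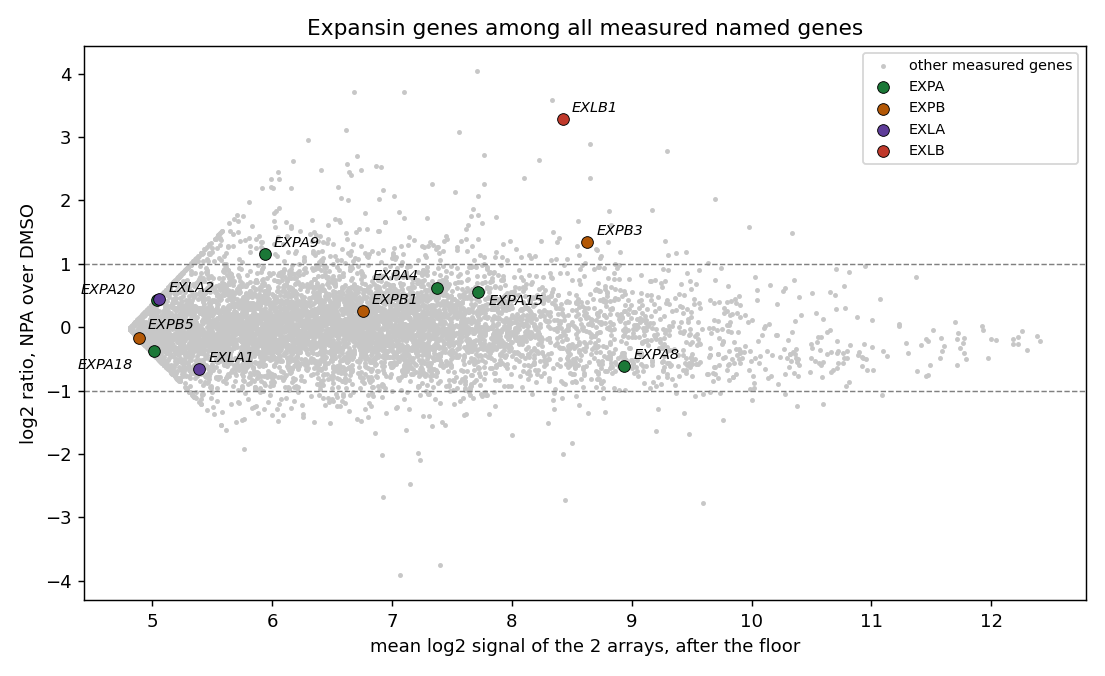
Log2 ratio of NPA over DMSO against the mean log2 signal of the 2 arrays after the floor, for all 7758 measured named genes (grey) and the 12 measured expansin genes (coloured by subfamily), with dashed lines at 2-fold. EXLB1, at 3.29, stands well above most genes of like signal, EXPB3 and EXPA9 lie above the upper line, and the other 9 lie between the lines.

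Of 26 EXPA genes in the gene table, 10 had a named probe set of their own and 6 were measured. The measured alpha-expansins other than EXPA9 were split in direction, and none of them reached 2-fold. EXPA4 (AT2G39700) had 206 on the NPA array, against 134 on the DMSO array, a log2 ratio of 0.62. EXPA15 (AT2G03090) had 255 on the NPA array, against 173 on the DMSO array, a log2 ratio of 0.56. Both were thus higher with NPA by about the same factor, 1.54-fold and 1.47-fold.

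EXPA8 (AT2G40610) went the other way, with 397 on the NPA array, against 606 on the DMSO array. Its log2 ratio was -0.61, a 1.53-fold lower signal with NPA. In the brightest signal bin, to which it belongs, 13.7% of genes were lower by 1.5-fold or more, so a difference of this size was frequent at this signal level. After lowess centring, which removes the trend of the ratio with signal, it was -0.53.

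EXPA20 (AT4G38210) had a signal of 38.1 on the NPA array, against 24.1 on the DMSO array, where it is at the floor. With NPA it was higher by at least 1.35-fold. EXPA18 (AT1G62980), which together with EXPA7 is known from root hair cells, had 28.3 on the NPA array, against 36.8 on the DMSO array, a log2 ratio of -0.37. The NPA signal of EXPA18 was barely above the floor, and EXPA7 (AT1G12560) was at the floor on both arrays, with 16.9 on the NPA array and 19.2 on the DMSO array. These root hair genes were thus at the floor or within 1 signal unit of it on the NPA array.

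EXPA16, EXPA21 and EXPA24 were also at the floor on both arrays and are given no ratio. EXPA16 had 14.98 on the NPA array and 12.8 on the DMSO array. EXPA21 and EXPA24 belong to a run of 6 neighbouring EXPA genes in the gene table, from EXPA21 over EXPA22, EXPA23, EXP26 and EXPA25 to EXPA24. The run is covered here by 4 probe sets, of which 2 are shared by a pair of genes each. Signals of these 4 were 1.24 to 2.23 on the NPA array and 2.18 to 4.097 on the DMSO array. All were far below the floors, so no probe set of the run was above the floor on either array.

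Of the beta-expansins other than EXPB3, EXPB1 (AT2G20750) had 118 on the NPA array, against 99.2 on the DMSO array, a log2 ratio of 0.25. That is close to the SD of 0.21 among the 18 probe sets for hybridisation spike-ins. These were added to the samples and carry no plant difference, so their SD leaves out any spread between plants. Over the 6812 named genes above the floor on both arrays, the SD of the log2 ratios was 0.54. The spike-ins' log2 ratios ranged from -0.61 to 0.20. EXPB1 thus lay just above the highest of them, while EXPA8, at -0.61, was level with the lowest. EXPB5 (AT3G60570) had 19.3 on the NPA array, at the floor, against 31.3 on the DMSO array, just above it, and was at least 1.12-fold lower with NPA. EXPB2 was at the floor on both arrays, with 20.2 on the NPA array and 16.7 on the DMSO array. EXPB3 was thus the only 1 of the 4 named EXPB genes with a difference of 2-fold or more on these arrays.

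The EXLA genes did not go one way. EXLA1 (AT3G45970) had 33.4 on the NPA array, against 52.8 on the DMSO array, a log2 ratio of -0.66. It ranked 579 from the lowest of the 6812 genes. EXLA2 (AT4G38400), whose loss is known to alter resistance to the fungus Botrytis cinerea, had 38.9 on the NPA array, against 28.6 on the DMSO array, a log2 ratio of 0.44. The DMSO signal of EXLA2 was just above the floor. EXLA3, which lies beside EXLA1 in the gene table with 1 gene between them, was at the floor on both arrays, with 4.05 on the NPA array and 4.58 on the DMSO array.

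At a looser rule of 1.5-fold, 4 of the 18 genes were higher with NPA (EXLB1, EXPB3, EXPA9 and EXPA4), beside 6.51% of all named genes and 11.2% of the measured ones. At the same rule 2 of the 18 were lower (EXPA8 and EXLA1), beside 6.15% of all named genes and 10.6% of the measured ones. Of the 12 measured genes, 8 had a log2 ratio above 0 and 4 below 0, and all 12 kept their sign in those of the 9 alternatives in which they were measured.

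The median log2 ratio of the 12 measured genes was 0.44, beside -0.026 over all 7758 measured named genes. It falls between EXPA20 at 0.43, a bound, and EXLA2 at 0.44, whose DMSO signal was just above the floor. The bound of EXPA20 also enters the EXPA median given below. The 12 leave out the 6 genes at the floor. With all 18 genes kept and the floor added to their signals, a setting chosen after the data were seen, the median was 0.078, beside -0.044 over all 13356 named genes. With the floor added to the 12 genes alone, the family median was 0.28. The median thus depended both on which members were kept and on how the floor was used. EXLB1 and EXPB3 passed 2-fold in each case. By subfamily, the median log2 ratio of the measured genes was 0.49 for 6 EXPA genes, 0.25 for 3 EXPB genes and -0.11 for 2 EXLA genes. With all named genes kept and the floor added, it was 0.015 for 10 EXPA genes, 0.14 for 4 EXPB genes and -0.042 for 3 EXLA genes, so neither the size of these medians nor the order of EXPA and EXPB held.

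**Figure D3:**
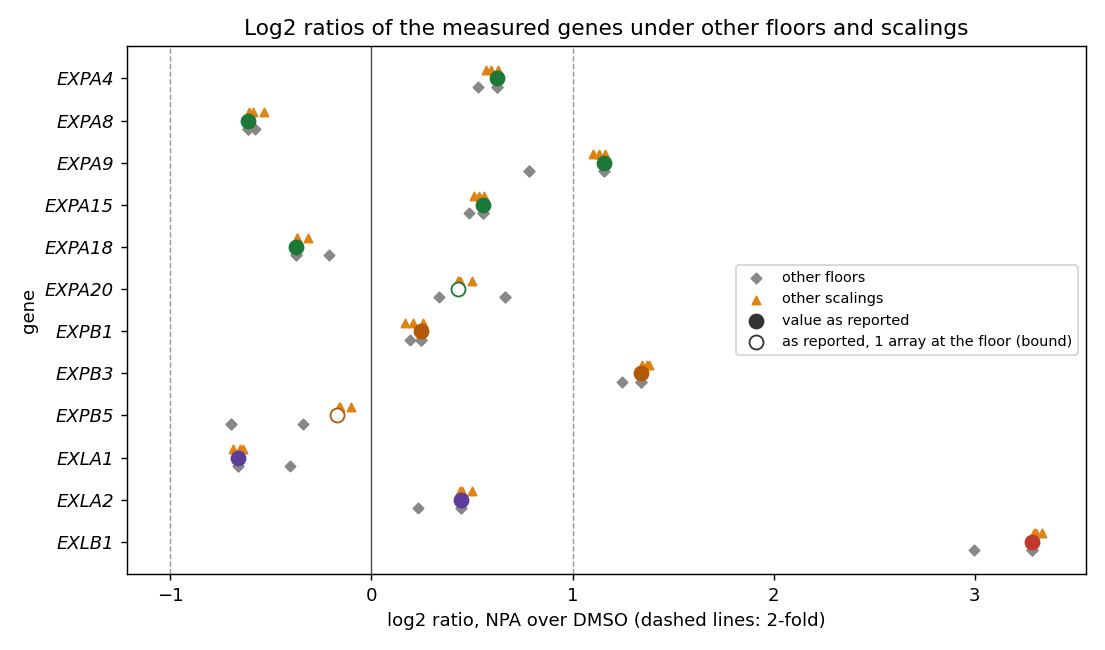
Log2 ratio of NPA over DMSO for the 12 measured genes as reported (large circles, open where 1 array is at the floor), under other floors (grey diamonds) and under other scalings (orange triangles), with dashed lines at 2-fold. EXLB1 and EXPB3 stay above 2-fold throughout, EXPA9 comes to 0.78 under some floors, and no gene crosses 0.

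Other genes of wall loosening and wall synthesis were read from 6 lists chosen by symbol. By the 2-fold rule, 3.75% of all measured named genes were higher with NPA and 2.13% were lower. In lists this short, a count of 0 or 1 therefore says little. Xyloglucan endotransglucosylase/hydrolases cut and rejoin the xyloglucan that coats cellulose. Of 10 named genes of this list 5 were measured and 0 passed 2-fold in either direction. Among them, EXGT-A3 had 327 on the NPA array, against 410.5 on the DMSO array, a log2 ratio of -0.33. XTH18 had 11.6 on the NPA array, at the floor, against 34.6 on the DMSO array, and was at least 1.24-fold lower.

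Family 9 endoglucanases cleave beta-1,4-glucans in the wall. Of 15 named genes 7 were measured, 1 passed 2-fold in the higher direction and 0 in the lower. That gene was GH9B13, with 315 on the NPA array, against 130.5 on the DMSO array, a 2.42-fold difference. GH9C2 had 546 on the NPA array, against 396 on the DMSO array, a log2 ratio of 0.46.

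Pectin methylesterases remove methyl groups from wall pectin. Of 2 named genes, both measured, PME61 had 147 on the NPA array, against 71.1 on the DMSO array, a 2.07-fold difference. PMEPCRF had 586 on the NPA array, against 304 on the DMSO array, a 1.93-fold difference. COB, needed for the orientation of cellulose deposition and the sole named gene of its list, had a log2 ratio of -0.37. The lists of plasma membrane proton pumps and of SAUR genes, which act in auxin-driven wall acidification, had 0 named genes here and could not be read.

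**Figure D4:**
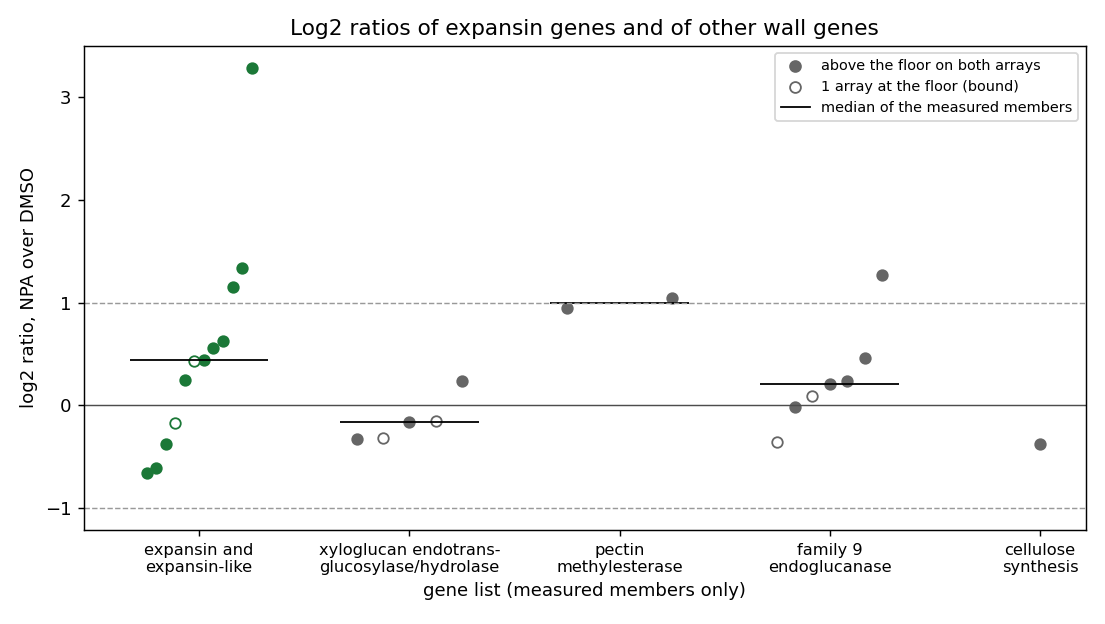
Log2 ratio of NPA over DMSO for each measured gene of the expansin family (green) and of 4 other wall gene lists (grey). Circles are open where 1 array is at the floor, and dashed lines mark 2-fold. A black line marks the median of each list with more than 1 measured gene, so the cellulose synthesis list has none. The 12 expansin genes span from -0.66 to 3.29. The 5 xyloglucan endotransglucosylase/hydrolase genes are plotted between -0.33 and 0.24, where XTH18 and XTH33 are bounds and could lie lower.

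The arrays had median signals of 44.5 with NPA and 43.3 with DMSO. As a sign of RNA state, signal at the 3' end over that at the 5' end of actin was 1.66 with NPA and 2.21 with DMSO. The same ratio was 0.803 with NPA and 0.893 with DMSO for GAPDH, and for ubiquitin it was 1.64 with NPA and 1.85 with DMSO, so all 3 were lower with NPA. Of 10 leaf mesophyll markers 5 had a named probe set. All 5 were measured, and their summed signal was 18373 with NPA and 23077 with DMSO. Of 5 root markers 3 had a named probe set and 2 were measured. The 3 named root markers include EXPA7 and EXPA18, which belong to the family described here, and the sum of all 3 was 471 with NPA and 665 with DMSO. The root marker from outside the family was PYK10, a root and seedling beta-glucosidase gene, which had 425 with NPA and 609 with DMSO. Of 5 genes listed for stomata 3 were named and 2 measured. FMA had 47.4 with NPA and 64.5 with DMSO, and STOMAGEN had 95.9 with NPA and 166 with DMSO. MUTE was at the floor on both arrays. The 3 flower markers had 0 named probe sets here. The 3' to 5' ratios, the summed leaf markers, FMA, STOMAGEN and PYK10 were all lower with NPA. Their part in the expansin differences was not tested.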

How the data were processed

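The deposited values are signal intensity per probe set on a linear scale, made with MAS5 and GCOS per the submitters' processing notes, without versions given. The trimmed mean was 100.0 on both arrays, so the deposited intensity values had been scaled to a common mean. Detection calls were not used here. Of 22746 probe sets that are not controls, 13513 have 1 gene, 503 several and 8730 none in the array's annotation. Loci and neighbours come from the TAIR10.1 gene table, which matched all 18 members. The groups follow the treatment in the labels.

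Signals were floored at each array's 40th percentile, genes above it on 1 array or both counted as measured, and genes were called by size (2-fold). With 1 array per group no test was run, and this number of arrays limits all precision. The steps were tested on simulated arrays. Changes were planted only in genes well above the floor, with noise set to the spike-ins' SD. The recovery of changes near the floor was thus not tested. All members are named, and from each other list up to 2 measured genes with the largest absolute log2 ratio. The members and lists were chosen with earlier results of these data known. Alternatives were no floor, a floor at the 25th or the 55th percentile, a floor added to the signals, scaling by median, quantiles or lowess (span 0.3), leaving out shared probe sets, averaging a gene's probe sets, and rules of 1.5-fold and 3-fold. The software was matplotlib 3.10.9, scipy 1.17.1 and statsmodels 0.14.6 with pandas 2.3.3 and numpy 2.4.6 under Python 3.11.15.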

Additional observations from a re-analysis of the deposited data

How the results depend on the processing

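No paired analysis was possible because each group has 1 array, and leaving out an array was impossible for the same reason. With no replicate spread, a value counts as moved when it shifted by more than 0.21, the SD of the spike-ins' log2 ratios. This cut is a convention, since that SD does not measure shifts between treatments of the same arrays. Of 103 values of the 12 measured genes under the 9 alternatives, 94 moved by less than this, 9 moved and 0 changed sign. Leaving out shared probe sets and averaging a gene's probe sets could not change a member, since each has 1 unshared probe set. Another percentile floor, or none, could not change a gene that lies above it on both arrays. The 94 thus include values that were fixed in advance. The 9 were EXPA20 (0.66) and EXPB5 (-0.70) without a floor and with one at the 25th percentile, EXPA9 at 0.78 under 2 floors, and EXLB1 (2.99), EXLA1 (-0.40) and EXLA2 (0.23) with the floor added. A rule of 3-fold left 1 gene higher and a rule of 1.5-fold gave 2 lower, by construction. The median log2 ratio was 0.078 with the floor added and all 18 genes kept, and 0.28 with the floor added to the 12, so keeping the dim genes lowered it. Over all named genes, dropping the floor gave 1102 higher and 1340 lower genes at 2-fold, against 291 higher and 165 lower with it. Signals near the floor limit EXPA9, which came under 2-fold, and EXPA18, EXPA20, EXPB5, EXLA1 and EXLA2.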

Other observations

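AT4G30380, which the gene table lists as EXLB2 by synonym, was outside the symbol rule and was looked up after the other values were seen. Its signal was 0.978 on the NPA array and 2.39 on the DMSO array, far below both floors. EXLB1 was thus the only EXLB gene above the floor among those with a named probe set.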
